A study of Drosophila melanogaster with 384 samples.

Results

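The gene charlatan (chn, FBgn0015371) lies on the plus strand of chromosome arm 2R, between positions 15115236 and 15144783 of the release 6 assembly. The window used here was the gene plus 5 kb upstream of each transcription start site (TSS), from 15110236 to 15144783. A total of 20 of the 68775 regions of the deposited table overlapped this window by at least 1 bp. They were chosen by position alone, but the gene was picked with earlier results of these data in view, so its values are given as a description without a test.

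Charlatan is a nuclear protein with C2H2 zinc fingers that has been compared with the vertebrate repressor REST. In the sensory organs of the fly it is known as a regulator of the proneural genes achaete and scute, and in the eye disc as a repressor of the Notch ligand Delta. Genes with such roles often have several enhancers spread over long introns. Open chromatin marks promoters and enhancers as candidate sites of regulation but does not say whether they are active.

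Single-cell ATAC-seq was run on the Fluidigm C1, a microfluidic device with separate cell chambers, in which the Tn5 transposase cuts open DNA. The cells were GFP-positive cells sorted from 200 eye-antennal discs of larvae at the wandering stage of the third instar, of the strain F2-B(sens)-GFP, genotype w;F2-B/CyO, where an intronic senseless (sens) enhancer that Atonal targets drives the reporter. CyO is a balancer of the second chromosome, which carries chn, and the labels do not say how many larvae had it. The labels give 1 group and no animal or chip, so the 72 cells of the table were summed and treated as 1 sample. Intervals are 95% intervals of counting error only. A region within 500 bp of any annotated TSS is called promoter, and any other region distal.

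Depth, as counts per cell in listed regions, ranged from 908 to 5892 around a median of 2694.5, and the table held 197425 counts. The sens window, built as for chn, was at percentile 97 of protein-coding genes by counts per kb, and that of gl, a photoreceptor regulator, at the 99.3rd. The reporter carries a further copy of a sens enhancer, and 57.1% of the counts in the sens window lay in 1 region. Whether reads of the reporter were placed there was not tested. The glial gene repo, with 9 counts, was at the 27th (6.39 to 56.5 for the bounds of its interval). The hemocyte gene eater, with 2 counts in 1 cell, was at the 13.3rd (1.42 to 67.6). The hemocyte gene Hml, however, was at the 78th (55.8 to 91.9). The further marker genes elav and twi were at percentiles 75.98 (65.02 to 85.06) and 33.5 (24.6 to 42.9). Among the other R8 and furrow genes, ato was at the 39.4th percentile (12.9 to 66.7). The boss window was at the 28.9th (8.22 to 56.03), and both windows had 11 counts. All regions of the eater, Hml, boss and elav windows also lay in other windows, as did 43 of 51 for twi. The purity of the sorted cells was not tested.

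The chn window was rich in counts. Its regions held a mean of 2.97 counts per cell (95% Poisson interval 2.59 to 3.40) on 29.8 kb, which summed over the 72 cells gives 7.18 counts per kb (6.25 to 8.21). This was 0.108% of all counts on 0.0375% of the listed bases. The median gene had 2.81 counts per kb, and among 13657 genes chn stood at percentile 89.5, with 85.6 and 92.7 for the bounds of its interval. By the plain number of counts it ranked 83rd. Windows of neighbouring genes can share regions, but only 1 chn region, the last one, also lay in the window of another gene.

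Transcription of chn can start at 3 annotated sites, and 9 transcripts are annotated. The first site (15115236) and the second (15115461) are close together and open an untranslated first exon. The third (15128826) lies 13.6 kb from the first and opens another untranslated first exon. Every transcript then splices to the exon that holds the start codon, at 15138215. Transcripts from the first pair of sites thus have an intron of 22413 bp, and those from the third have one of 8916 bp. Below, a region is named by its centre relative to the first TSS.

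**Figure D1:**
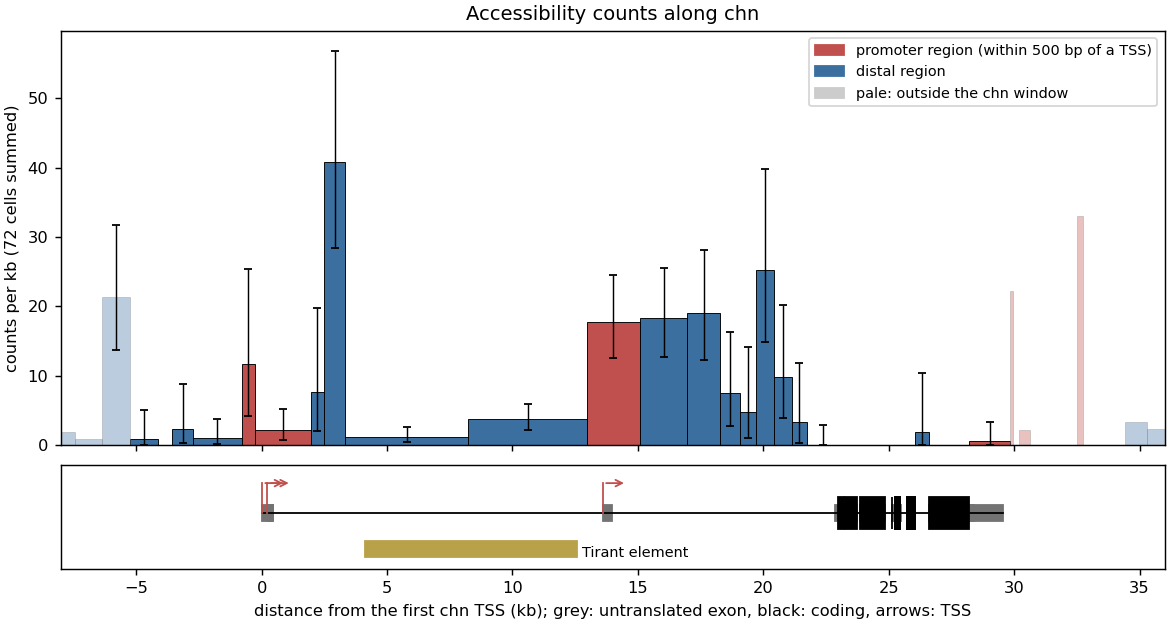
Counts per kb of each listed region (72 cells summed, bars as wide as the region, lines are 95% Poisson intervals of the chn regions and of the region just before the window) against the distance from the first chn TSS in kb, above the exons, TSS and Tirant element. The highest bar is the +2.9 kb region at 40.8 counts per kb, a block of 3 regions from the third TSS onwards has 17.8 to 19, and the coding end of the gene has under 2; pale bars lie outside the window.

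Most counts lay inside the introns. The 11 regions wholly within introns held 74.3% of the chn counts (68.1 to 79.7%) on 59.4% of the listed bases. A total of 19 of the 20 regions had at least 1 count, as did 81.6% of all listed regions. At least 5 counts were found in 11 of the 20, against 16.2% of all listed regions. At least 15 counts were found in 6 of the 20, against 3.11%. As the gene was picked with these counts known, nothing is read from these shares or from those given further on. These 6 regions held 78.5% of the chn counts (72.5 to 83.5%) on 39% of the bases. The remaining 14 regions had between 0 and 7 counts each, summed over all cells.

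The densest region was not a promoter. The +2.9 kb region (15117713 to 15118569, 857 bp) lies in the long first intron, 2252 bp downstream of the second TSS. It had 0 counts in 49 cells, 1 count in 15 cells, 2 in 4 cells and 3 in 4 cells, which sums to 35 counts (24.4 to 48.7). The 23 cells with a count were 31.9% of all (Wilson interval 22.3 to 43.4%). At 40.8 counts per kb (28.4 to 56.8) it ranked 40th among the 49602 distal regions of the table. It stood out sharply from its surroundings. The adjoining +2.2 kb region (15117196 to 15117712) had 4 counts in 2 cells, 3 of them in 1 cell, and the +5.8 kb region (15118570 to 15123462) on the other side had 6 counts on 4893 bp.

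The first pair of TSS had 11 counts in all. The +0.8 kb region (15114950 to 15117195) contains both sites and the 5′ UTR of the first exon, and 5 cells had 1 count each, or 2.23 counts per kb (0.723 to 5.2). That is at the 45.6th percentile of promoter regions. The -0.5 kb region (15114437 to 15114949), which ends shortly before the first TSS, had 1 count in each of 6 cells, which is 11.7 counts per kb (4.29 to 25.5) and percentile 86.2 of the promoter class. Because the +0.8 kb region is 2246 bp long, counts close to the TSS could not be separated from those in the intron behind it. The 3 distal regions further upstream had 5 counts in all, 1.29 per kb (0.420 to 3.02).

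The third TSS had a higher density. The +14 kb region (15128224 to 15130302) covers this site, its 5′ UTR exon of 360 bp and the start of the next intron. Its 37 counts (26.1 to 51) were the most of any chn region and fell in 22 cells, or 30.6% (21.1 to 42%). Of these cells, 14 had 1 count, 4 had 2 and 4 had 3 or more, with a highest value of 5. Its density of 17.8 counts per kb (12.5 to 24.5) was 4.46 times that of the combined regions at the first pair of TSS (2.23 to 9.70). When repeat counts of a region in a cell were dropped, which left 22 of the 37 counts here and all 11 at the first pair, the ratio was 2.65 (1.23 to 6.06). The -0.5 kb region alone is too short and sparse to be separated from it. The third TSS region was at the 94.9th percentile of promoter regions.

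The region at the third TSS was not isolated but opened a run of dense regions. The +16 kb region (15130303 to 15132211) followed directly and had 35 counts (24.4 to 48.7) in 27 cells, the largest number of cells for any chn region. In 21 of these cells the count was 1. At 18.3 counts per kb (12.8 to 25.5) it reached percentile 98.7 of the distal class. The +17.6 kb region (15132212 to 15133525) had 25 counts (16.2 to 36.9) spread over 17 cells, which is 19 counts per kb (12.3 to 28.1) and percentile 98.8. The 3 neighbours thus had densities that their intervals do not separate, and the ratio of the promoter region to the next region was 0.97 (0.595 to 1.59). Together they held 97 counts in 42 cells, which is 45.3% of the chn counts (38.8 to 52%) on 17.8% of the bases.

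Density then dropped and rose once more within the same intron. The +18.7 kb region (15133526 to 15134323) had 6 counts in 6 cells and the +19.4 kb region had 3 counts in 2 cells. The +20.1 kb region (15134944 to 15135657, 714 bp) had 18 counts (10.7 to 28.4), with 1 count in 10 cells and 2 in 4 cells. At 25.2 counts per kb (14.9 to 39.8) it came next to the +2.9 kb region in density and was at percentile 99.4 of the distal class. The +20.8 kb region (15135658 to 15136371) had 7 counts in 6 cells and 9.80 counts per kb. The +21.4 kb region had 2 counts.

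Towards the coding part of the gene the counts ended. The +22.4 kb region (15136979 to 15138215), which runs up to the first coding base, had 0 counts in 72 cells. A count of 0 still allows 3.69 counts, or 2.98 per kb, and 5.07% of cells with a count. The 2 listed regions beyond the coding start, at +26.3 kb and +29 kb, had 1 count each. The latter (15143448 to 15145071) covers the 3′ UTR and counts as promoter only because it comes within 500 bp of the TSS of Polr2K, a gene for a subunit of the RNA polymerases that starts on the opposite strand downstream of chn. The coding exons lie almost wholly between listed regions and were not measured.

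**Figure D2:**
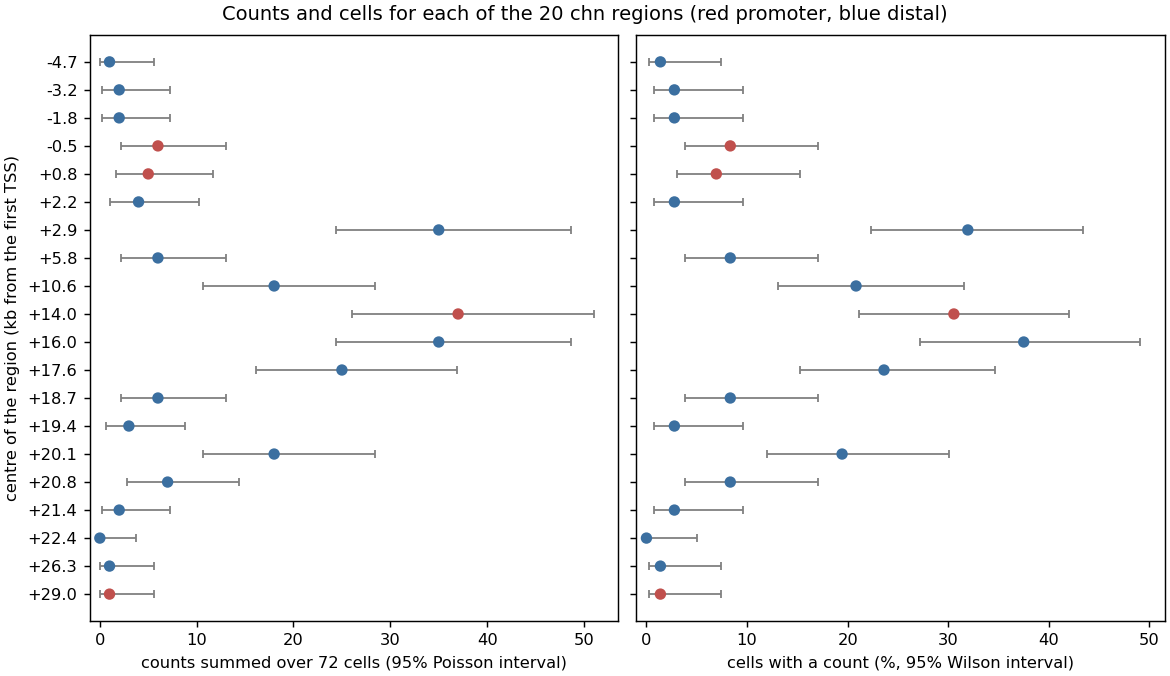
Each of the 20 chn regions (y axis, centre in kb from the first TSS) with its counts summed over 72 cells and the percentage of cells with a count (x axes; points are values, lines 95% Poisson and Wilson intervals, red promoter and blue distal). The +14, +16 and +2.9 kb regions lead on both measures, between 35 and 37 counts and 30.6 to 37.5% of cells.

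A transposable element fills much of the gap between the first TSS and the third. The annotation places Tirant{}833, of 8425 bp, at 15119372 to 15127796, within the long intron. It covers 83.6% of the +5.8 kb region and 91% of the +10.6 kb region (15123463 to 15128223). The first had 6 counts in 6 cells. The second had 18 counts (10.7 to 28.4) in 15 cells on 4761 bp, or 3.78 counts per kb (2.24 to 5.98), and its end outside the element stops 603 bp before the third TSS. The 2 regions together had 2.49 counts per kb (1.59 to 3.70), whereas all 1246 listed regions that are mostly transposable element had 0.65. Where within the +10.6 kb region its counts fell, whether this strain carries the insertion and whether reads of other Tirant copies were placed here was not tested. Without both regions the window had 9.43 counts per kb (8.13 to 10.9). It was at percentile 95.2 when regions that are mostly transposable element were left out of all gene windows.

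Promoter and distal regions of chn were then compared. The 4 promoter regions had 49 counts on 6.46 kb, or 7.58 per kb (5.61 to 10.0), and the 16 distal regions, on 23.3 kb, had 7.07 per kb (6.03 to 8.23). The ratio was 1.07 (0.764 to 1.48). Over all listed regions the ratio was 2.32 (2.30 to 2.34), from 4.38 counts per kb in promoter and 1.88 in distal regions. Distal regions of chn thus had 3.75 times the density of all other distal regions (3.20 to 4.37). Its promoter regions had 1.73 times that of all other promoter regions (1.28 to 2.29). Of the 49 promoter counts, however, 37 lay in the +14 kb region. The regions at the first pair of TSS had 3.99 counts per kb (1.99 to 7.13). Without repeat counts of a region in a cell, the promoter value was 1.46 (1.01 to 2.04) and the distal value 3.44 (2.87 to 4.10).

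Counted by region, 4 of the 16 distal regions had at least 10 counts per kb, against 5.30% of all distal regions, and 5 of the 16 had at least 15 counts, against 1.75%. Among its promoter regions, 2 of 4 had at least 10 counts per kb (17.1% of all promoter regions) and 1 of 4 had at least 15 counts (6.62%). Promoter regions held 22.9% of the chn counts (17.8 to 29%). Among the 932 genes with at least 10 regions and 50 counts in the window, the median promoter share was 37.7% (quartiles 21.9 and 57.4%), and chn was at the 26.3rd percentile. The ratio depended on how promoters were defined. With 1000 bp on either side of a TSS it was 0.60, because the +10.6 kb and -1.8 kb regions then counted as promoter. With chn TSS alone it was 1.49, and without the regions that are mostly transposable element it was 0.74.

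The spread of counts over regions was near the middle of these 932 genes. The top region held 17.3% of the chn counts (12.8 to 22.9%), against a median of 21.6% (percentile 35.4). The top 3 held 50%, against 47%, and the top 5 held 70.1%, against 62.2%. Between the third TSS region and the +2.9 and +16 kb regions the order by counts was not resolved. When repeat counts of a region in a cell were dropped, the +16 kb region came first with 27 and the +14 kb region fell from 37 to 22.

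Counts at chn were found in most cells. At least 1 count fell in 58 of the 72 cells, or 80.6% (Wilson interval 69.97 to 88.05%). The lowest number per cell was 0, the median 2 and the highest 13, and 17 cells had 5 or more. Of the cells with a count, 28 had it in distal regions only, 4 in promoter regions only and 26 in both. Counts in at least 2 of the 20 regions were found in 40 cells, and 1 cell had counts in 9 regions.

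The number of counts per cell varied more than counting error at the depth of each cell would give, with a variance 2.66 times the Poisson variance. For single regions, which have lower means, this ratio was 1.22 at +2.9 kb, 1.04 at +16 kb and 1.71 at +14 kb. The 14 cells without a count had a median depth of 2479.5 (range 1295 to 4839), and those with a count 2751.5. The 2 cells with 13 counts had depths of 2599 and 4323. Without the 3 cells with most chn counts the window had 5.90 counts per kb, and the same region led.

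With chn left out, the share of counts that fell on 2R also differed between cells, from 9.02% to 36.6% with a median of 20.4%. This share was taken over fewer counts than the depth of the cell, and it moved with the chn counts. Over the 72 cells, the chn counts had a Spearman correlation of 0.45 (Pearson 0.42) with the counts on the rest of 2R and of 0.24 (Pearson 0.23) with those on the other main arms. These points share the library of a cell and its depth, and no p-value is given. The median 2R share was 17.1% in cells without a chn count and 20.7% in those with one. Relative to the 2R counts, the variance of the chn counts was 2.39 times the Poisson variance. The part of the arm share in the spread of the chn counts was not tested.

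**Figure D3:**
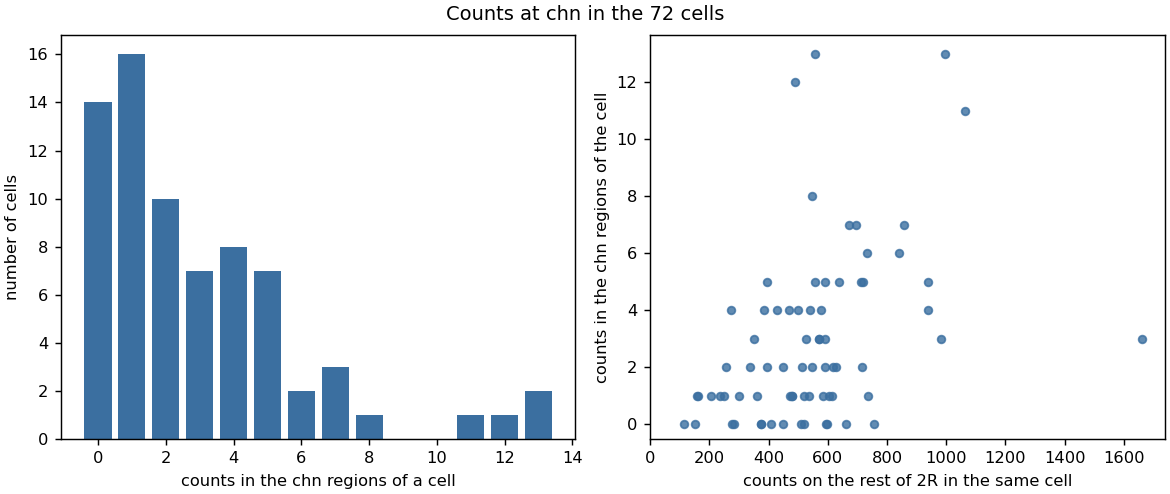
Left, the number of cells (y axis) with each number of counts in the chn regions (x axis); right, chn counts of each of the 72 cells (y axis) against its counts on the rest of 2R (x axis). A total of 14 cells had 0 counts and 4 cells had 11 to 13, and cells with more counts on 2R tended to have more at chn (Spearman 0.45).

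Many cells had counts in more than 1 of the main regions. Of the 6 regions with at least 15 counts, 18 cells had a count in none, 20 in 1, 12 in 2, 15 in 3, 6 in 4 and 1 in 5. The largest overlap was that of the +14 and +16 kb regions, with 11 cells in common. The +16 kb region had a count in 50% of the cells with a count at +14 kb and in 32% of the others. The +17.6 kb region had one in 37% of the cells with a count at +16 kb and in 15.6% of the others. With +14 kb in place of +16 kb, these values were 22.7% and 24%. For the +2.9 and +16 kb regions the corresponding values were 39.1% and 36.7%. At 1 or 2 counts per cell, such overlaps cannot show whether regions are open together.

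The genes whose counts per cell were most like those of chn were looked up among 2580 genes with at least 30 counts, no region in common and a distance of at least 100 kb. The highest Spearman correlations over the 72 cells were those of dpn (0.61), which encodes a bHLH protein of neural precursors, pnut (0.59), which encodes a septin, CG34217 (0.48), Trpm (0.45), a cation channel gene, and fj (0.45), which encodes a Golgi kinase of planar polarity. The median over all these genes was 0.079. All 5 lie on 2R, as do 59 of the 100 highest, although 2R holds 21.5% of the genes ranked. The windows of dpn, pnut and CG34217 share regions, so these are not separate values. After division by the 2R counts of each cell the correlation fell to 0.43 for dpn and 0.22 for fj.

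Proneural and Notch pathway genes were described with the same window. Of the 15 genes on this list, 13 were above the median gene, and for 9 the interval lay above it, against 24.6% of all genes. The 9 include sens, the highest with 10.9 counts per kb (8.47 to 13.7), an enhancer of which drives the reporter used for sorting. They also include da, whose lower bound of 2.87 was only just above the median gene at 2.81. The median of the list was 4.72 counts per kb. Among the achaete-scute genes, ac and sc are the known targets of chn. The gene ac had 9.84 counts per kb (6.81 to 13.7) and sc had 7.85 (5.18 to 11.4). Of the sc counts, 22 of 27 lay in 1 region. The genes l(1)sc with 3.36 (1.95 to 5.37) and ase with 4.29 (2.55 to 6.79) had intervals that overlap that of sc. Every region of these 4 windows also lay in another window, and a link of density with chn was not tested. The gene ato, the proneural gene of R8, had 2.24. The lowest was amos, a proneural gene of olfactory precursors, with 2 counts. The HLH inhibitor emc had 9.31 counts per kb (7.51 to 11.4), the bHLH repressor h 4.72, the bHLH partner da 4.48 and the spacing factor sca 3.07. In the Notch pathway, the ligand Dl had 5.88 counts per kb (4.92 to 6.96), the receptor N 7.86 (6.87 to 8.96), the Delta ligase neur 7.03 (5.80 to 8.44) and the DNA-binding effector Su(H) 3.29. All regions of the da, emc and Su(H) windows were shared with other windows, as were 12 of 19 for neur, 2 of 4 for ato, 1 of 3 for amos, 2 of 30 for N, 1 of 19 for Dl and 1 of 18 for sca, so such values are not those of 1 gene alone.

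The balance of promoter and distal regions differed between loci. The promoter to distal ratio was 1.14 for N (0.771 to 1.64), 1.32 for Dl (0.803 to 2.08) and 1.01 for neur (0.668 to 1.51). For gl it was 1.65 (1.1 to 2.51) and for sens 1.72 (0.979 to 2.92). These 5 intervals overlap that of chn. The ratio was 2.40 for emc (1.55 to 3.69), 4.48 for h (2.26 to 9.18) and 5.29 for sca (3.20 to 8.61). Their intervals lie above that of chn, for emc only narrowly (1.55 against an upper bound of 1.48). Without the Polr2K promoter region the chn ratio was 1.40 (0.996 to 1.95). That interval overlaps the interval of emc but not those of h and sca. In ttk, which encodes a BTB zinc finger repressor and had 8.77 counts per kb on 25 regions, 79.5% of the counts lay in promoter regions and the ratio was 11.1 (7.81 to 16.2). The distal density of ttk was 2.42 counts per kb against 7.07 for chn. No test over replicates was possible for these differences. The intervals cover counting error alone, and the chn counts per cell varied more than that.

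**Figure D4:**
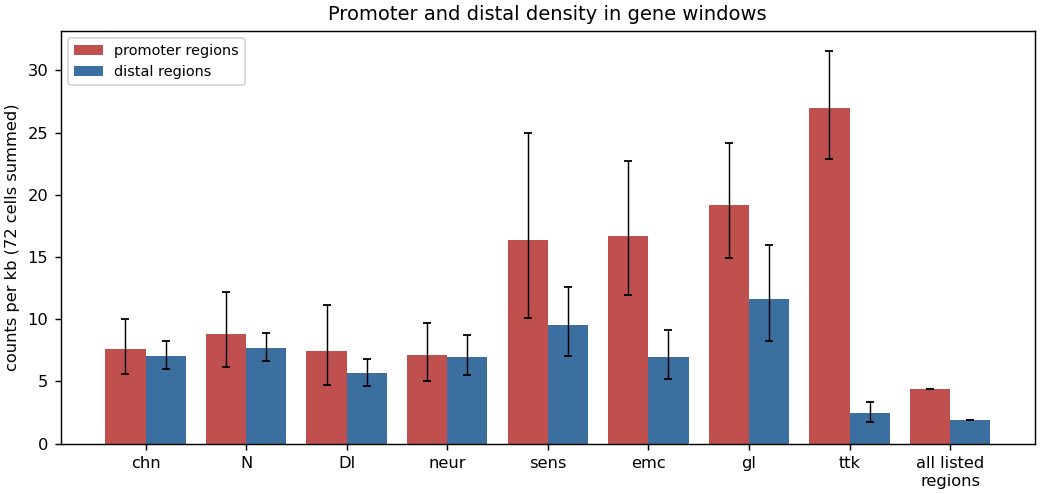
Counts per kb (y axis, 72 cells summed) in promoter (red) and distal (blue) regions of 8 gene windows and of all listed regions; lines are 95% Poisson intervals. In chn both are close to 7 counts per kb (7.58 and 7.07), whereas ttk has 27 in promoter and 2.42 in distal regions.

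The regions just inside and outside the window were also examined. The first chn region, at -4.7 kb (15109988 to 15111094), overlaps the start of the window and had 1 count. The region directly before it, at -5.8 kb (15108863 to 15109987), lies just outside the window and is not a chn region by the rule. Its 24 counts fell in 20 cells and made 21.3 counts per kb (13.7 to 31.7), at percentile 99.1 of the distal class, and no annotated gene lies between it and chn. At the other end, the next listed region, at +29.9 kb, had 2 counts in 1 cell. With 10 kb upstream in place of 5 kb, chn had 7.09 counts per kb, and 87.5% of cells had a count.

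Short sequence cores were searched on both strands of the 20 regions in the RefSeq copy of the release 6 genome. The expected number is the sum, over the 20 regions, of the share of listed regions of the same kind and within 10% of the length that hold the core. The Su(H) core TGGGAA was in 13 of 20 regions (10.9 expected in this way), the E-box CAGCTG in 7 (7.32), the Atonal-type E-box CAGGTG in 5 (6.41), the GAGA factor core GAGAGAG in 6 (3.75), the Sine oculis core TGATAC in 4 (5.54) and the GATA core GATAAG in 7 (8.18). Matches of GAGAGAG may overlap each other.

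The densest regions differed in these cores. The +2.9 kb region held TGGGAA at 3 places, which 45.7% of distal regions of like length hold at least once, and none of the other 5 cores. The +17.6 kb region held CAGCTG at 4 places, CAGGTG at 2 and TGGGAA at 2. Of regions of like length, 41.2%, 32.6% and 61.6% hold them. The next region, at +18.7 kb, held CAGCTG at 3 places (27.5%) but had 6 counts. The +22.4 kb region, with 0 counts, held GAGAGAG at 4 places (14.3%). A match is not a binding site, and no binding was measured. The median GC content of the 20 regions was 43%, against 40.6% for all listed regions of the main arms.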

How the data were processed

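Per the labels and methods of the study, reads were trimmed with fastq-mcf, mapped with Bowtie2 (2.2.5) to FlyBase release 6 (dm6), sorted with SAMtools (1.2) and freed of duplicates with Picard, and a manual filter on aggregation plots chose the cells. The authors deposited raw counts per cisTarget region (conservation divides the non-coding genome into these pieces) and cell, without normalisation. The counting tool, whether reads or fragments were counted, any shift for Tn5 and the rule for listing regions are not given in the sources used here for this table. Each of the 72 columns matched 1 cell title, and 0 columns were left unused. The other cells were not analysed here, and doublets were not assessed.

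Regions were annotated with the Ensembl 115 annotation, and the last region of each main arm ended within that arm of the reference. Table starts count from 0 and are printed from 1. Counts were summed over cells and used whole for each region that overlapped a window. The genes h and Dl were matched by identifier. Exact Poisson, Wilson and exact conditional ratio intervals (95%, scipy 1.17.1, Python 3.11.15) cover counting error alone. Duplicates were removed by position rather than by molecular identifiers, so counts may still not be independent molecules. Cells are not replicates, and no p-value was computed. The code was tested on simulated counts.

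Regions named are those with at least 5 counts, those at a chn TSS and the longest region with 0 counts, besides neighbours needed for comparison, which were chosen after their values were seen. Members and lists were chosen with earlier results of these data known.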

Additional observations from a re-analysis of the deposited data

How the results depend on the processing

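For 6 values (counts per kb, gene percentile, promoter share, promoter to distal ratio, share of the top region and share of cells with a count), 52 of 64 alternative values stayed within the counting interval of the reported one and 12 moved outside it. Some of the 52 could not move. Requiring at least 50% of a region in the window kept the same 20 regions, so all but the gene percentile were unchanged. Counting a region at most once per cell cannot change the share of cells with a count. The share of the top region (15.1 to 19.5%) and the share of cells (77.8 to 87.5%) stayed within their intervals under all alternatives run. The top region itself changed from +14 kb to +16 kb without repeat counts. The alternatives without transposable element regions, with 10 kb upstream and without the Polr2K promoter region were chosen after seeing the data, as were those of the density ratios between regions. Of these 4 ratios, that of chn distal regions to all others moved outside its interval, to 3.18 without the 3 cells with most chn counts. The cause was not tested unless one is given.

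Counts per kb were 5.37 when repeat counts of a region in a cell were dropped and 5.90 without the 3 cells with most chn counts, both of which have fewer counts by construction, and 9.43 without the regions that are mostly transposable element. The gene percentile was 85.4 without repeat counts, 97.4 per kb of the whole window, 81.7 with promoter regions only, 82.9 among genes with at least 10 counts, by construction without sparse genes, and 95.2 without transposable element regions. With 1000 bp on either side of a TSS the promoter share was 32.2% and the promoter to distal ratio 0.60. This ratio was 1.49 with TSS of chn only and 0.74 without transposable element regions, so its side of 1 is not settled. No paired analysis was possible because there is only 1 group. Depth limits single regions, since a count of 0 still allows 3.69 counts.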

Other observations

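Downstream of chn, the windows of Polr2K and CG7544 held the same 5 regions, the +29 kb region of chn among them. Their 14 counts made 4.27 counts per kb (2.34 to 7.17). The window of CG8089, which shares some of these regions, had 4.43 counts per kb (2.42 to 7.43), so these are not separate values. These intervals overlap that of chn. The window of igl, further downstream, had 41 counts on 25 regions, which is 1.49 counts per kb (1.07 to 2.02) and percentile 21.8 among genes. Upstream of chn, the nearest annotated gene was lncRNA:CR44457, 22790 bp away, and the nearest protein-coding gene was CG33467, 58994 bp away. The 5 listed regions of this stretch between -11.3 and -6.9 kb had 1 to 4 counts each.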
